A study of Mus musculus with 16 samples.

Results

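Kainate receptors are ion channels opened by glutamate, assembled as tetramers from the subunits encoded by Grik1 to Grik5, and they bind the auxiliary proteins encoded by Neto1 and Neto2. Transcript levels of these 7 genes, of the 18424 in the table, were examined in the medial prefrontal cortex (mPFC) of adult mice. The genes were taken by name, by matching their symbols to Ensembl identifiers, and each matched 1 row. The list was chosen by function and, for Neto1, selected on its p-value for fluoxetine in WT mice, where it ranked near the top, so the values of that comparison are a description.

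The mice were male, of the C57BL/6N strain, and were studied at postnatal day 120, with 4 mice in each of 4 groups. They were WT, or heterozygous (HT) for a germline mutation that truncates the protein at exon 5 of Arid1b, a gene for a subunit of a SWI/SNF chromatin remodeler. As pups they were nursed from postnatal day 3 to 21 by dams whose water held 0.2% saccharin alone (Veh) or 0.2% saccharin with fluoxetine, a serotonin reuptake inhibitor, at 0.1 mg per ml (Flx). This gives HT-Veh and WT-Veh, without the drug, and HT-Flx and WT-Flx, with it. All mice were nursed by dams on saccharin and had normal drinking water after weaning. The drug reached the pups through milk, and the dose per pup is not given in the sources used here. The labels do not say which mice were littermates, so p-values measure the spread between these mice.

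Kainate receptors, like other glutamate receptors, are found on both sides of the synapse. Postsynaptic kainate receptors carry slow currents, and presynaptic and extrasynaptic ones adjust transmitter release and the excitability of the neuron. GluK1 to GluK3, encoded by Grik1 to Grik3, can form channels on their own, whereas the high-affinity subunits GluK4 and GluK5, encoded by Grik4 and Grik5, need one of the former to reach the surface. Neto1 and Neto2 are single-pass membrane proteins that slow the closing of kainate receptors, and Neto1 is also known to bind NMDA receptors.

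The 5 subunits are paralogs. The stretch that forms the pore loop is printed here to compare the 5 transcripts within it. It also holds the glutamine codon that adenosine deaminases can recode to arginine in Grik1 and Grik2 RNA (the Q/R site). The capitals mark that codon, and the sequences run 5′ to 3′ along annotated transcripts of GRCm38.
Grik1: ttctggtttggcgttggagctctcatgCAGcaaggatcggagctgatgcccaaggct
Grik2: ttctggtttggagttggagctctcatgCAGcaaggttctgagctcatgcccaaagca
Grik3: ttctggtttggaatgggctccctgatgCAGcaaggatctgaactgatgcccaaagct
Grik4: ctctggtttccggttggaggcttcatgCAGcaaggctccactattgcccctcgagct
Grik5: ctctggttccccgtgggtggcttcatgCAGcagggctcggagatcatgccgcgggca

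The marked codon read CAG in all 5 reference transcripts. It lay at chr16:87940542-87940544 in exon 12 of 17 of Grik1 and at chr10:49244329-49244331 in exon 13 of 17 of Grik2, both on the minus strand. It lay at chr4:125691207-125691209 in exon 12 of 16 of Grik3, on the plus strand. For Grik4 it was at chr9:42547623-42547625 in exon 16 of 21, and for Grik5 at chr7:25022497-25022499 in exon 15 of 20, both on the minus strand. In Grik1, Grik2 and Grik3 the window runs on into the next exon, and in Grik4 and Grik5 it lies within 1 exon. Over these 57 bases, Grik1 and Grik2 shared 51 (89.5%), the most of any pair, and Grik3 and Grik4 shared 33 (57.9%), the fewest. Grik4 and Grik5 shared 41 bases (71.9%). Editing was not measured here, since the table holds 1 value per gene.

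The genes themselves lie on 7 chromosomes and are all annotated as protein-coding. Grik1 (ENSMUSG00000022935) spans chr16:87895900-88290265, Grik2 (ENSMUSG00000056073) chr10:49094833-49788766, and Grik3 (ENSMUSG00000001985) chr4:125490700-125714173. Grik4 (ENSMUSG00000032017) spans chr9:42518135-42944493 and Grik5 (ENSMUSG00000003378) chr7:25009849-25072346. Neto1 (ENSMUSG00000050321) spans chr18:86394952-86506718 and Neto2 (ENSMUSG00000036902) chr8:85636588-85700924. Annotated genes whose exons overlap exons of a member are Gm24420 in Grik4, AC113599.1, an antisense gene, at Neto1, and Mir8109 at Neto2. None of these 3 had a row in the table.

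All values are normalized read counts, that is, read counts estimated per gene and divided by a size factor of each sample, and the totals over all genes ran from 26718751 to 29902419 per mouse. The sequencing depth is unknown. Arid1b itself was lower in HT than in WT mice by a log2 difference of -0.39 over both treatments (exact permutation test within treatment, two-sided, p 0.0012, 4900 regroupings). Cortical markers were present throughout, with Slc17a7, the vesicular glutamate transporter of cortical excitatory neurons, between 32162 and 43463. Markers of the olfactory bulb, which adjoins the frontal cortex, varied widely between mice. Eomes, which marks bulb projection neurons, was at 899 in WT-Veh replicate 1, at 149, 318 and 857 in WT-Flx replicates 1, 2 and 4, and at 240 in HT-Veh replicate 4. In the other 11 mice it was at most 25.3, with HT-Flx replicate 3 at 0. A score of 10 such markers (mean log2(value + 1)) was 10.37, 5.91, 6.20 and 5.88 in WT-Veh replicates 1 to 4, and 8.18, 8.94, 6.49 and 10.09 in WT-Flx. It was 6.12, 5.84, 6.04 and 8.78 in HT-Veh, and 6.22, 6.29, 5.61 and 6.09 in HT-Flx. The WT-Flx and HT-Flx scores thus did not overlap, and the values given below for Grik4, Neto1, Adar, C1ql3, Cdh2 and Grin3a include some with the score in the fit. The summed level of all 10 markers, each of which was in the table, ran from 3923 to 20923 in WT-Veh, 4996 to 19782 in WT-Flx, 4505 to 9481 in HT-Veh and 4583 to 6146 in HT-Flx. In bulk tissue, fewer cells of a type and less RNA per cell cannot be told apart.

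To compare the members with each other, levels were divided by length, as normalized read count per kb of annotated exon. Grik5 had the highest level, at 1410 ± 63.9 per kb (mean ± SD over 16 mice), followed by Neto1 at 453 ± 62.8, Grik3 at 364 ± 55.4 and Neto2 at 279 ± 29.5. Grik2 was at 150 ± 17.3, Grik4 at 131 ± 19.6 and Grik1 at 53.8 ± 4.62. Grik5 alone made up 66.9% ± 2.69 of the summed level per kb of the 5 subunits. Per kb, the high-affinity subunits Grik4 and Grik5 together were 2.75 ± 0.385 times the sum of Grik1 to Grik3. Neighbours in this order did not all separate: Neto1 exceeded Grik3 in 15 of 16 mice and Grik2 exceeded Grik4 in 12 of 16, while each other pair of neighbours kept its order in all 16. With the length of the longest annotated transcript in place of all exons, the order of the 7 genes was the same, and Grik2 was then above Grik4 in 16 of 16 mice, Grik3 above Neto2 in 14 and Grik4 above Grik1 in 14.

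**Figure D1:**
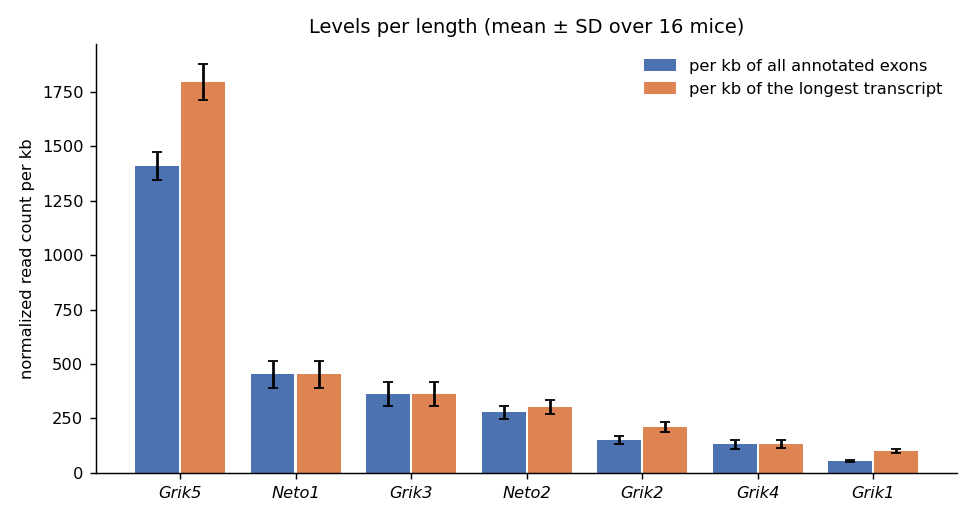
Normalized read count per kb for the 7 genes, on a linear axis, with bars for the mean and whiskers for the SD over 16 mice. Blue bars divide by the length of all annotated exons and orange bars by the longest transcript. Grik5 stands at 1410 per kb of exon and Grik1 at 53.8.

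Against the other glutamate receptors, the 5 kainate subunits summed to 49.4% ± 2.90 of the 4 AMPA receptor subunits per kb of exon and to 70.6% of the 6 NMDA receptor subunits in the table, with a range of 64.0% to 83.4% over mice. With transcript lengths these shares were 43.6% ± 2.94 and 50.4% ± 2.93, so they depend on the length used.

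Across mice, Grik5 varied least, with a coefficient of variation of 4.53% over all 16, and Grik1 came next at 8.59%. Grik3 (15.2%), Grik4 (just below it) and Neto1 (13.9%) varied most, with Neto2 at 10.6% and Grik2 at 11.5% between them. The highest of the 4 group means exceeded the lowest by 1.31-fold for Neto1, 1.26-fold for Grik4, 1.15-fold for Grik3, 1.12-fold for Grik2, and 1.11-fold for both Grik1 and Neto2. For Grik5 this was 1.04-fold.

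**Figure D2:**
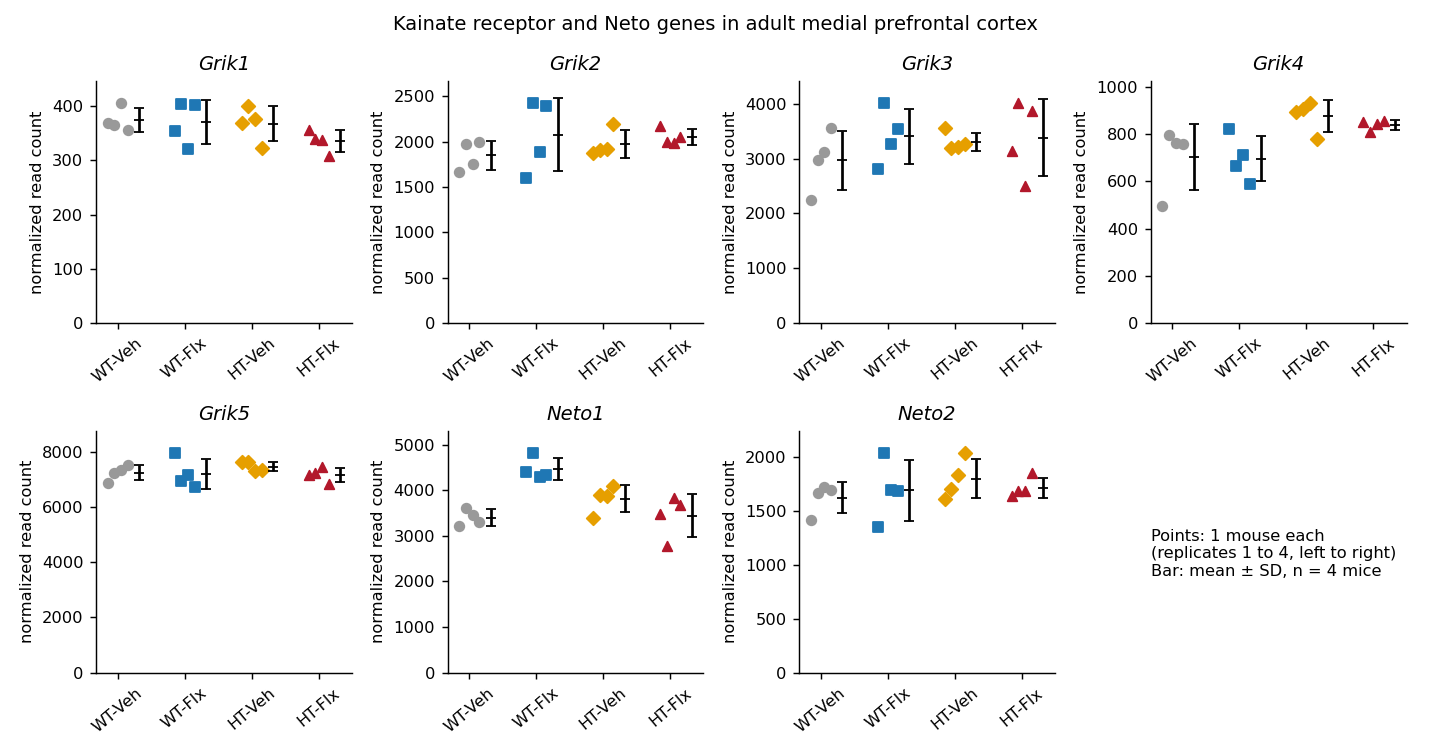
Normalized read count of each gene in every mouse, on a linear axis from 0, by group. Each point is 1 mouse, with replicates 1 to 4 from left to right, and the bar beside them gives the mean ± SD (n = 4). For Neto1, the 4 WT-Flx mice lie above the highest of the others, at 4088. For Grik4, 6 of 8 HT mice lie above every WT mouse.

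The first comparison asks what early fluoxetine left behind in the adult cortex of HT mice, HT-Flx against HT-Veh, a contrast that shares no mice with the one that selected Neto1. None of the 7 members passed the threshold (limma, adjusted p under 0.05, over 16814 genes), where the share of all genes that passed was 0%. None of the 7 had an unadjusted p under 0.05, against 3.07% of all genes, and none had groups that did not overlap, against 1.99%. The median log2 change of the members was -0.06, beside 0.00303 over all genes tested.

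Of the subunits that can form channels alone, Grik1 read 369, 401, 376 and 323 in HT-Veh replicates 1 to 4 and 357, 339, 339 and 309 in HT-Flx. The ranges overlapped, and the log2 change was -0.13 (SE 0.10, 95% interval -0.35 to 0.10, adjusted p 1.00). Grik2 was between 1878 and 2199 in HT-Veh and between 1987 and 2173 in HT-Flx, a log2 change of 0.06 (SE 0.071, interval -0.10 to 0.21, adjusted p 1.00). Grik3 read 3558, 3188, 3217 and 3259 in HT-Veh and 3135, 4017, 2510 and 3877 in HT-Flx. The HT-Flx mice were spread on both sides of the HT-Veh mice, and the interval of the log2 change ran from -0.27 to 0.29. For the high-affinity subunits, the log2 change was -0.06 for Grik4 (SE 0.079, interval -0.23 to 0.11) and -0.06 for Grik5 (SE 0.057, interval -0.18 to 0.07).

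Neto1 read 3390, 3907, 3885 and 4088 in HT-Veh replicates 1 to 4 and 3484, 2780, 3832 and 3685 in HT-Flx. HT-Flx replicate 2 was the lowest of all 16 mice, and the 2 groups overlapped. The log2 change was -0.16 (SE 0.10, interval -0.37 to 0.06, adjusted p 1.00; exact permutation p 0.257, 70 regroupings), and without HT-Flx replicate 2 it was -0.056. Neto2 was between 1614 and 2036 in HT-Veh and between 1636 and 1850 in HT-Flx, a log2 change of -0.07 (SE 0.082, interval -0.25 to 0.11). The interval of each of the 7 members included 0.

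**Figure D3:**
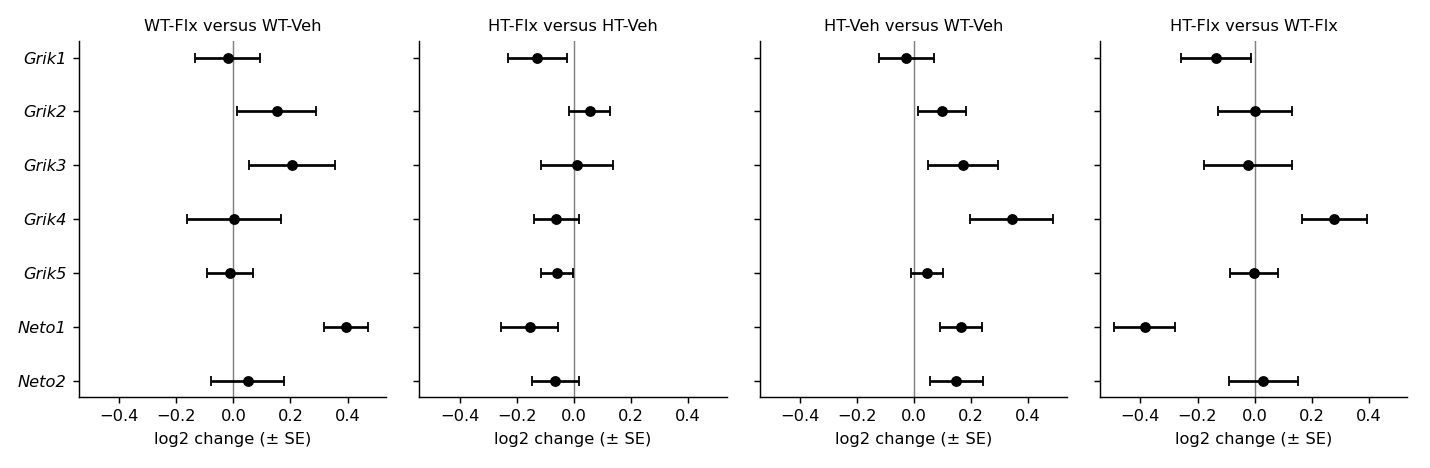
Log2 change of each gene (points) with its standard error (whiskers) from the limma fit, in 4 comparisons of 4 against 4 mice, all on 1 axis. Neto1 stands at 0.39 for WT-Flx versus WT-Veh and at -0.39 for HT-Flx versus WT-Flx, comparisons that share the WT-Flx mice. Grik4 stands at 0.34 and 0.28 in the comparisons of genotype.

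In WT mice, the comparison of WT-Flx with WT-Veh is the one that brought Neto1 onto the list, so it is described without a test for any member. Neto1 read 3214, 3618, 3471 and 3308 in WT-Veh replicates 1 to 4, and 4411, 4828, 4302 and 4344 in WT-Flx. All 4 WT-Flx mice lay above all other mice of the study, the highest of which was HT-Veh replicate 4 at 4088. The means were 3403 ± 179 and 4471 ± 242 (SD, n = 4 each), a 1.31-fold difference (log2 change 0.39, SE 0.078). Neto1 had rank 7 of 16833 genes by p in this fit, between Rps12-ps3 at rank 6 (log2 change 1.12) and Vps8 at rank 8 (log2 change 0.59). The share of all genes past the adjusted threshold in this comparison was 0%, with 4.2% at an unadjusted p under 0.05, and 1.81% of genes were higher in WT-Flx without overlap, as Neto1 was. The log2 change of Neto1 lay between 0.36 and 0.42 under all 18 alternatives. It was 0.41 with the olfactory bulb score in the fit, the mean score being 7.09 in WT-Veh and 8.42 in WT-Flx. All these refits reuse the mice that chose Neto1, so they describe the value and give it no support.

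The other members moved less between these 2 groups, and all 6 overlapped. Neto2 read 1413, 1665, 1723 and 1694 in WT-Veh and 1350, 2042, 1694 and 1691 in WT-Flx, a log2 change of 0.05 (SE 0.13). WT-Flx replicates 1 and 2 were the lowest and the highest of these 8 mice. The ratio of Neto1 to Neto2 per kb of exon was therefore 1.97 ± 0.293 in WT-Flx, against 1.54 ± 0.108 in WT-Veh, 1.56 ± 0.0850 in HT-Veh and 1.48 ± 0.198 in HT-Flx (SD, n = 4 each). The lowest WT-Flx ratio, 1.74, was above the highest of the other groups, 1.68. The ratio contains the Neto1 values that chose the gene, so this separation is a description with no test.

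Among the subunits in WT mice, Grik2 read 1668, 1974, 1757 and 1994 in WT-Veh and 1598, 2427, 1891 and 2396 in WT-Flx (log2 change 0.15, SE 0.14). WT-Flx held both the lowest and the highest Grik2 value of the study. Grik3 read 2246, 2970, 3118 and 3552 in WT-Veh and 2804, 4017, 3270 and 3541 in WT-Flx (log2 change 0.20, SE 0.15). For Grik1, Grik4 and Grik5 the log2 changes were -0.02 (SE 0.11), 0.0014 (SE 0.16) and -0.01 (SE 0.080). Without WT-Veh replicate 1 the value for Grik4 was -0.16.

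Whether fluoxetine acted differently in the 2 genotypes is addressed by the interaction, the change in HT minus that in WT. All 7 interaction values were below 0, from -0.05 for Grik5 to -0.55 for Neto1, as were 49.7% of the 17567 genes fitted. These 7 values share the same 16 mice. The value for Neto1 (SE 0.13) had rank 6 by p and contains the comparison that chose the gene, so it has no test here. None of the other 6 passed (limma, adjusted p 0.998 for each), with 0% of all genes past the threshold, and none of the 6 had an unadjusted p under 0.05, against 4.29% of genes. The interaction was -0.19 for Grik3 (SE 0.21), -0.12 for Neto2 (SE 0.16), -0.11 for Grik1 (SE 0.15) and -0.10 for Grik2 (SE 0.16). That of Grik4 was -0.06 (SE 0.19).

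The comparisons of genotype ask what the loss of 1 Arid1b copy leaves in the adult cortex, first with vehicle (HT-Veh against WT-Veh) and then with fluoxetine (HT-Flx against WT-Flx). Of the 6 members tested in each, none passed the adjusted threshold, which 0.0178% and 0.0417% of all genes did. In each comparison 1 of the 6 had an unadjusted p under 0.05, against 4.88% of genes with vehicle and 10.4% with fluoxetine, and in both that member was Grik4. With vehicle none of the 7 had groups that did not overlap, against 3.84% of genes.

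Grik4 read 497, 796, 762 and 758 in WT-Veh replicates 1 to 4, and 895, 906, 932 and 781 in HT-Veh. In HT-Veh, 3 of 4 mice were above every WT-Veh mouse, and WT-Veh replicate 1 was far below its group. The log2 change was 0.34 (SE 0.14, interval 0.02 to 0.66, adjusted p 0.922; exact permutation p 0.0571, where 4 against 4 mice can give no less than 0.0286). Without WT-Veh replicate 1, the mouse with the highest olfactory bulb score, it was 0.18 (adjusted p 0.640).

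With fluoxetine, Grik4 read 820, 665, 714 and 588 in WT-Flx replicates 1 to 4, and 852, 811, 842 and 855 in HT-Flx. Again 3 of the 4 HT mice were above every WT mouse, and the HT-Flx mice lay close together (840 ± 20.1, SD, n = 4). The log2 change was 0.28 (SE 0.11, interval 0.03 to 0.53, adjusted p 0.436; exact permutation p 0.0571). With the olfactory bulb score in the fit it was 0.088 (SE 0.18).

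Over both treatments, with treatment as a term, Grik4 was higher in HT by a log2 difference of 0.31 (SE 0.091, interval 0.12 to 0.50), or 1.24-fold, and 6 of 8 HT mice were above every WT mouse. It had the smallest p of the 7 members (limma, p 0.00304), and did not pass after adjustment (adjusted p 0.269). The exact permutation test within treatment gave p 0.0016 over 4900 regroupings, 1 of 26 such tests on members. None of the 7 members passed the adjusted threshold, which 0.0398% of all genes did, and 1 of 7 had an unadjusted p under 0.05, against 11.9% of genes. Among the 7 is Neto1, whose p in this fit is a description, for the reason given below. The median over the members was 0.05, beside 0.00437 over all genes.

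This difference in Grik4 moved with the olfactory bulb markers. With their score as a covariate it was 0.18 (SE 0.074, adjusted p 0.776), and without the 4 mice with the highest scores it was 0.19 (SE 0.062, adjusted p 0.516). These are 57.3% and 61.0% of the value with all mice, in the same direction. With the slope of the score fitted within groups, Grik4 fell by 0.11 on the log2 scale for each unit of score (SE 0.023, adjusted p 0.0043). It was the only 1 of the 7 members to pass, where 11.3% of all genes passed and 6.61% passed with a negative slope. The slope of Grik4 was -0.080 (adjusted p 0.358) without WT-Veh replicate 1.

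**Figure D4:**
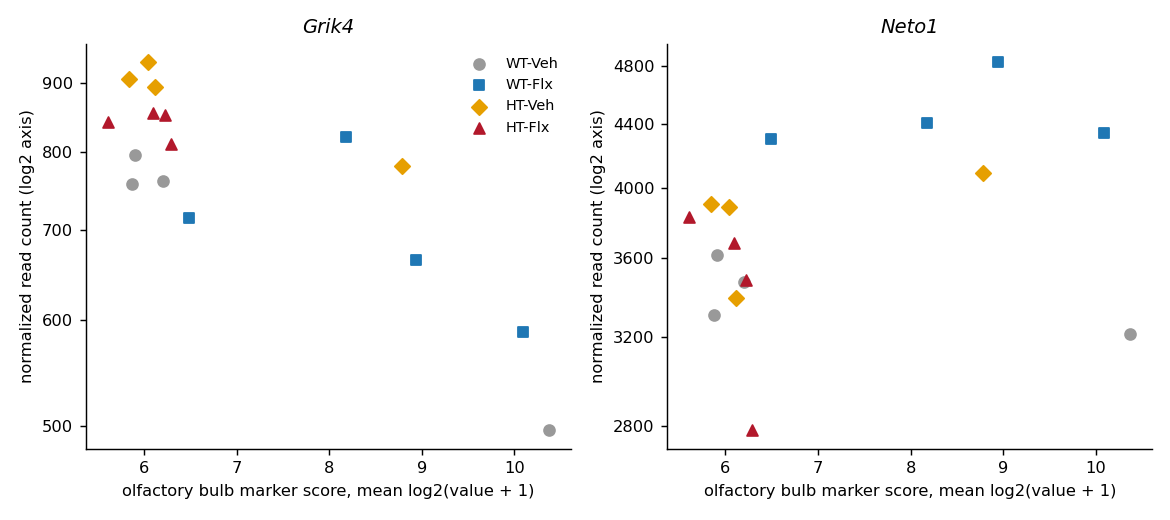
Normalized read count of Grik4 (left) and Neto1 (right) on log2 axes against the olfactory bulb marker score, 1 point per mouse, with groups by colour and shape. Grik4 is lowest, at 497 and 588, in the mice with the highest scores, 10.37 and 10.09. The WT-Flx mice are highest in Neto1 at scores from 6.49 to 10.09.

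The other slopes did not pass the threshold. They were -0.0046 for Neto1 (SE 0.025, adjusted p 0.927), -0.0046 for Neto2 (SE 0.030) and -0.02 for Grik5 (SE 0.016, adjusted p 0.371). For Grik1, Grik2 and Grik3 they were 0.0045, 0.02 and -0.04. A slope tells how a gene moved with the markers within groups, and the part of bulb tissue in any value was not tested beyond these fits. Markers of the striatum, another neighbour of the mPFC, also differed between mice, with a score of 7.13 to 10.13. With both scores as covariates the genotype difference of Grik4 was 0.19 (adjusted p 0.730).

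The genotype differences of the other subunits were small. With vehicle, the log2 difference was -0.03 for Grik1 (SE 0.097), 0.10 for Grik2 (SE 0.083), 0.17 for Grik3 (SE 0.12) and 0.05 for Grik5 (SE 0.057). With fluoxetine it was -0.14 for Grik1 (SE 0.12), 0.0013 for Grik2 (SE 0.13), -0.02 for Grik3 (SE 0.15) and -0.0017 for Grik5 (SE 0.083). Over both treatments the intervals ran from -0.23 to 0.07 for Grik1, -0.12 to 0.21 for Grik2, -0.15 to 0.30 for Grik3 and -0.07 to 0.12 for Grik5. Grik5, the most abundant subunit per length, had the narrowest interval of these. It read 6880, 7263, 7359 and 7527 in WT-Veh, 7988, 6961, 7161 and 6733 in WT-Flx, 7639, 7633, 7307 and 7365 in HT-Veh, and 7192, 7237, 7478 and 6855 in HT-Flx. The 4 groups overlapped.

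For the auxiliary genes, Neto2 was higher in HT by 0.15 with vehicle (SE 0.093, adjusted p 0.922) and by 0.03 with fluoxetine (SE 0.12, adjusted p 0.947), and by 0.09 over both (SE 0.077, interval -0.07 to 0.25). None of these passed. Neto1 had a log2 difference of 0.16 with vehicle (SE 0.074) and of -0.39 with fluoxetine (SE 0.11). HT-Flx and WT-Flx did not overlap in Neto1, which held for 5.83% of genes, 3.13% being lower in HT-Flx. With the olfactory bulb score in the fit the value with fluoxetine was -0.40 (SE 0.18). Both comparisons share mice with the one that chose Neto1, so neither has a test. Over both treatments, where WT-Flx and WT-Veh count on the same side, the log2 difference of Neto1 was -0.11 (SE 0.090, interval -0.30 to 0.08, adjusted p 0.614). That fit has no interaction term, so the WT change that chose Neto1 enters the spread behind its SE, interval and p. For Neto1 these are therefore a description as well. In order of mean, Neto1 was highest in WT-Flx (4471 ± 242), then HT-Veh (3818 ± 299), HT-Flx (3445 ± 466) and WT-Veh (3403 ± 179), and of neighbours in this order only WT-Flx and HT-Veh did not overlap.

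A list of 21 genes whose products act on these receptors was examined next, among them scaffolds (Dlg1, Dlg4, Cask, Pick1, Grip1, Grip2), proteins of trafficking and turnover (Snap25, Klhl17, Klhl24, Cul3, Kif17, Senp1), adhesion and synaptic partners (Cdh2, Ctnnb1, C1ql2, C1ql3, Nrxn3), and the RNA editing enzymes Adarb1 and Adar. The table listed 20 of them, all but Klhl17. None passed the adjusted threshold in any comparison of groups or in the interaction (limma, 20 tested in each, and 19 for HT-Veh against WT-Veh, where C1ql2 was too low). At an unadjusted p under 0.05 there were 0 for HT-Flx against HT-Veh, 2 for HT-Veh against WT-Veh, 2 for HT-Flx against WT-Flx, 2 for genotype over both treatments and 0 for the interaction. The shares of all genes at that level, in the same order, were 3.07%, 4.88%, 10.4%, 11.9% and 4.29%. In HT-Veh against WT-Veh the groups did not overlap for 2 of 19 partners, Cdh2 among them, against 3.84% of all genes. In HT-Flx against WT-Flx this held for 1 of 20, Adar, against 5.83% of genes. In WT-Flx against WT-Veh it held for 1 of 20, Cdh2. It was higher in WT-Flx, as 1.81% of genes were without overlap.

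C1ql3, a secreted C1q-like protein known to bind kainate receptors at hippocampal mossy fibre synapses, had the smallest p of the list for genotype over both treatments. It read 1684, 2722, 2327 and 2667 in WT-Veh and 3066, 3139, 3173 and 2517 in HT-Veh, with WT-Veh replicate 1 again the lowest. With fluoxetine it read 2359, 2671, 2271 and 2077 in WT-Flx and 2423, 3568, 2800 and 3742 in HT-Flx. The log2 difference over both treatments was 0.38 (SE 0.11, adjusted p 0.267), and its bulb slope was -0.10 (SE 0.033, adjusted p 0.0632). With the score in the fit the difference was 0.26 (SE 0.097, adjusted p 0.747).

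Cdh2, the adhesion protein N-cadherin, which is linked to the surface level of GluK2, had the smallest p of the list in 3 comparisons. Its log2 change was 0.16 in HT-Veh against WT-Veh (SE 0.060, adjusted p 0.922), 0.22 in WT-Flx against WT-Veh (SE 0.080, given without a test) and -0.23 in the interaction (SE 0.12, adjusted p 0.998). Its values in WT-Veh were 2960, 2786, 2809 and 2629, below every HT-Veh value (3054 to 3202) and every WT-Flx value (3051 to 3480). Both comparisons share the WT-Veh mice. With the bulb score in the fit, the change in HT-Veh against WT-Veh was 0.17 (SE 0.046, adjusted p 0.214).

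The editing enzyme Adar had the smallest p of the list in HT-Flx against WT-Flx, at 4515, 5389, 4978 and 5168 in HT-Flx and 3645, 4431, 4246 and 3961 in WT-Flx. Every HT-Flx mouse was above every WT-Flx mouse, in a comparison where 5.83% of all genes did not overlap. The log2 change was 0.30 (SE 0.093, adjusted p 0.344), and the bulb slope was -0.07 (SE 0.022, adjusted p 0.0605). With the score in the fit the change was 0.28 (SE 0.16, adjusted p 1.00). Adarb1, the enzyme best known for the Q/R sites printed above, had log2 changes of 0.23 in that comparison (SE 0.12, adjusted p 0.509) and 0.04 with vehicle (SE 0.088). In HT-Flx against HT-Veh, the smallest p of the list was that of Senp1, which encodes a protease, with a log2 change of 0.14 (SE 0.11, adjusted p 1.00).

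With the olfactory bulb score, 7 of the 20 partners had slopes above 0 and 13 below. The threshold was passed by 3 of the 20, all with positive slopes, where 11.3% of all genes passed and 4.67% passed with a positive slope. They were Grip2 at 0.18 per unit of score (SE 0.029, adjusted p 0.000606), Ctnnb1 at 0.10 (SE 0.018, adjusted p 0.00242) and Grip1 at 0.14 (SE 0.030, adjusted p 0.00752). Grip1 and Grip2 are scaffolds that bind AMPA and kainate receptors, and Ctnnb1 encodes beta-catenin. Over all genes, 1982 slopes passed with all mice and 154 without WT-Veh replicate 1. The slopes of these 3 partners were not refitted without that mouse. It read 1631 for Grip2 and 12435 for Ctnnb1, the highest of its group in each.

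Of the AMPA and NMDA receptor genes, 4 of 4 AMPA and 6 of 7 NMDA subunits (all but Grin3b) were in the table, and none passed in any comparison of groups or in the interaction. For genotype over both treatments, the smallest p of each list was that of Gria3 (log2 difference 0.16, SE 0.068, adjusted p 0.401) and Grin3a (0.34, SE 0.077, adjusted p 0.159). Grin3a, which encodes an NMDA subunit that lowers calcium entry, was 1268 ± 187 in HT-Veh and 954 ± 109 in WT-Veh (SD, n = 4 each), and with the bulb score in the fit its genotype difference was 0.27 (SE 0.079, adjusted p 0.455). At an unadjusted p under 0.05 there were 1 of 4 AMPA and 2 of 6 NMDA subunits in this comparison, against 11.9% of all genes. The median over the 4 AMPA subunits was 0.08 and over the 6 NMDA subunits 0.17, beside 0.05 for the 7 kainate and Neto genes.

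In HT-Flx against HT-Veh, the smallest p of each list was that of Gria1 (log2 change -0.08) and Grin1 (0.05), each with an adjusted p of 1.00. With vehicle, HT against WT gave 0.14 for Gria1 and 0.40 for Grin3a (adjusted p 0.899). With fluoxetine it gave 0.15 for Gria3 and 0.27 for Grin3a (adjusted p 0.381). In WT-Flx against WT-Veh, given without a test, the log2 changes were 0.19 for Gria1 and 0.10 for Grin3a. In the interaction they were -0.28 for Gria1 and 0.10 for Grin1, each with an adjusted p of 0.998. At an unadjusted p under 0.05 there were 0 of these 10 genes in HT-Flx against HT-Veh (3.07% of all genes), 1 (Grin3a) in HT-Veh against WT-Veh (4.88%), 1 (Grin3a) in HT-Flx against WT-Flx (10.4%) and 1 (Gria1) in the interaction (4.29%). The bulb score had slopes past the threshold for 1 of 4 AMPA subunits (Gria3, -0.08, adjusted p 0.00658) and 3 of 6 NMDA subunits. The latter were Grin2a at -0.19, Grin2b at -0.18 and Grin2c at 0.10. Of all genes, 6.61% passed with a negative and 4.67% with a positive slope. The slopes of these subunits were not refitted without WT-Veh replicate 1 either.

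Finally, the members were compared with the other 17566 genes tested over all 16 mice by Pearson correlation of log2(value + 1) after the group means were taken out. These r values describe mice that share the differences in tissue given above, and have no test. Grik4 was most like Prkcb (r 0.95), Gsg1l (0.95) and Brsk2 (0.93). In Prkcb and in Gsg1l, as in Grik4, WT-Veh replicate 1 was the lowest of its group, at 11101 and 1686. Neto1 was most like Mettl7a1 (0.86), Tnmd (0.84) and C130013H08Rik (0.84), so no gene followed it as closely as Prkcb followed Grik4.

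Grik3 was most like Rabgap1 (0.94), Suco (0.93) and Pcdh17 (0.93), and Neto2 most like Zfp770, Brd3 and Nedd9 (each 0.93). Grik2 was most like Fip1l1 (0.92), Thap12 (0.86) and Ch25h (0.86). For Grik1 the closest were Mcm9 (0.87), 9630001P10Rik (0.87) and Supt7l (0.86), and for Grik5 they were Gm17354 (0.88), 1700016K19Rik (0.88) and Mir22hg (0.87). Between members, the highest r was that of Grik2 with Neto2 (0.77), followed by Grik4 with Grik5 (0.68), the high-affinity subunits, and Grik3 with Neto2 (0.60). Grik2 and Grik5 had the lowest, at -0.58.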

How the data were processed

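RNA from the mPFC of 16 mice was sequenced by the authors from stranded poly-A libraries. The authors estimated transcripts with Salmon (1.1.0) on GRCm38 with GC bias correction and summed them to genes with tximport. The authors divided these counts by DESeq2 (1.30.1) size factors. The deposited signal is that normalized read count, without pooling of replicates. Values were not whole, and at most 11.6% of low values were within 0.05 of a whole multiple of the smallest, so reads were not recovered and intervals that need depth are not given. Groups came from the sample titles.

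The authors also tested for differences with DESeq2. As the deposited values are not counts, limma (3.58.1, R 4.3.3; trend, two-sided, Benjamini-Hochberg over all genes, threshold 0.05) was run on log2(value + 1) for genes of at least 10 in at least 4 samples. Changes on that scale understate those of low genes. Intervals are 95%. Single genes were also tested by exact permutation of mice. The fits were tested on simulated data, where 94 to 100 of 100 genes with a true log2 change of 1 or 2 were recovered. Smaller changes, such as those of the members, were not simulated. Positions, lengths and transcripts came from a GENCODE annotation of GRCm38. Named were all 7 members, partners or other receptor subunits past the threshold or else the 1 of each list with the smallest p, and the 3 genes most like each member; further partners, Grin3a values and sample markers were named after their values were seen. Some listed genes are not reported here. Members and lists were chosen with earlier results of these data known. Alternatives were pseudocounts of 0.1 and 8, no filter, 2 rescalings, sample weights, marker scores as covariates, all 4 groups in the fit, a replicate block and leaving out mice.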

Additional observations from a re-analysis of the deposited data

Results flagged for a closer look

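In 2 of 28 sets of 4 mice (7 genes in 4 groups), 1 mouse stood apart from the other 3 by Dixon's test, which chance alone flags in about 1 of 20 sets. Grik4 in WT-Veh was lowest in replicate 1, at 497, with the others from 758 to 796. That mouse also had the highest olfactory bulb score, 10.37, and the part of this in its Grik4 level was not tested. Grik2 in HT-Veh was highest in replicate 4, at 2199, with the others from 1878 to 1916. That mouse had the highest score of its group, 8.78, and the part of this in its Grik2 level was not tested. Over all mice, the slope of Grik2 with the score was 0.02 (limma, adjusted p 0.676).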

How the results depend on the processing

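Of 1029 alternative log2 values of members, 71 had the other sign. These were at most 0.19 in size and fell on 23 of 49 values, the adjusted p of those tested was no lower than 0.288, and the cause was not tested. In WT-Flx against WT-Veh, which was not tested, 15 of 126 had the other sign, with ranges of -0.064 to 0.047 for Grik1, -0.17 to 0.17 for Grik4, -0.062 to 0.023 for Grik5 and -0.045 to 0.15 for Neto2. With quantile normalization Grik3 was -0.0074 in HT-Flx against HT-Veh, Grik2 -0.038 in HT-Flx against WT-Flx, Grik5 -0.031 for genotype, and the bulb slopes were -0.011 for Grik1, 0.0066 for Grik5, 0.012 for Neto1 and 0.0022 for Neto2. With a common upper quartile Grik3 was -0.010 in HT-Flx against HT-Veh and Grik2 -0.021 in HT-Flx against WT-Flx. With sample weights Grik3 was -0.042 in HT-Flx against HT-Veh, Grik1 0.0087 in HT-Veh against WT-Veh, Grik4 0.096 in the interaction, and in HT-Flx against WT-Flx Grik2 was -0.072, Grik5 0.031 and Neto2 -0.058, with slopes of 0.0041 for Neto1 and 0.0086 for Neto2. With the bulb score as a covariate, HT-Flx against WT-Flx gave 0.095 for Grik1 and 0.19 for Grik3, and genotype gave -0.0023 for Grik5. Without the raised-bulb mice of HT-Veh and WT-Veh, Grik1 was 0.025 and Grik2 -0.0029, and without the group term the slope of Neto1 was 0.044.

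The mice share only a number: same-numbered mice had mean correlations of their deviations from 0.011 to 0.10, and the pairs above 0.1 were 3 of 4 for WT-Flx with WT-Veh (highest 0.31) and 1 of 4 for each of the other comparisons of groups. With a replicate block the slopes were 0.0048 for Neto1 and 0.015 for Neto2, Grik4 for genotype was 0.31 (adjusted p 0.197), and calls over all genes were 0 in place of 3 (HT-Veh against WT-Veh), 5 for 7 (HT-Flx against WT-Flx), 8 for 7 (genotype) and 895 for 1982 (slope).

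Alternatives chosen after the data were seen put the bulb score in the fits of Adar, C1ql3, Cdh2 and Grin3a, with the same direction for all 4, added bulb and striatal scores together, which gave -0.040 for Grik3 and 0.031 for Neto2 in HT-Flx against HT-Veh and -7.2e-05 for Grik5 in genotype, or left out the 4 mice with the highest bulb scores, which gave 0.011 for Grik1 and -0.020 for Grik5 in genotype.

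Leaving out each mouse in turn, in HT-Flx against HT-Veh Grik3 ran from -0.080 to 0.15, and in HT-Veh against WT-Veh Grik1 from -0.071 to 0.032. In HT-Flx against WT-Flx Grik2 ran from -0.12 to 0.083, Grik3 from -0.11 to 0.11, Grik5 from -0.034 to 0.048 and Neto2 from -0.073 to 0.13. Grik2 ran from -0.0018 to 0.091 for genotype, and in the interaction Grik4 from -0.14 to 0.096 and Grik5 from -0.079 to 0.0032. The slopes ran from -0.018 to 0.029 for Grik1, -0.054 to 0.045 for Grik3, -0.019 to 0.018 for Neto1 and -0.030 to 0.056 for Neto2. Without WT-Veh replicate 1, 0 members in place of 1 (Grik4) had a slope past the threshold, the range over mice being 0 to 1.

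Calls over all genes moved by over 1.5 times. HT-Veh against WT-Veh had 3, and 0 with all 4 groups in the fit, 18 with sample weights, 21 with the bulb score, 11 without raised-bulb mice, 37 with both scores and 0 to 2 without 1 mouse. HT-Flx against WT-Flx had 7, and 4 with a pseudocount of 0.1, quantile normalization or all 4 groups, 14 with weights, 0 with the bulb score and 0 to 23 without 1 mouse. Genotype had 7, and 23 with weights, 3 with both scores, 2 without the 4 high-bulb mice and 1 to 13 without 1 mouse. WT-Flx against WT-Veh had 0, and 12 with weights, 1 with the bulb score and 0 to 4 without 1 mouse. The slope had 1982, and 3032 with weights, 3495 without the group term and 154 to 3512 without 1 mouse. With 4 mice a group, a member with a small change cannot be told from one with none.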
